A study of Mus musculus with 8 samples.

Results

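The 37 genes described here run the DNA damage checkpoint and DNA repair, and they were taken by name from a fixed list. All 37 had a probe among the 21368 genes that could be named on the arrays, and 36 of them were bright enough to be tested. By role they comprised 13 checkpoint genes, 11 genes of double-strand break repair, 8 of base excision repair, 1 of mismatch repair and 4 of nucleotide excision repair. H2afx is spelled H2ax in the gene table used, and the list's Claspn was taken as Clspn, the table's symbol for claspin.

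Hippocampal RNA came from 8 female mice, with 1 Agilent 1-colour array per mouse. All were littermates of APPswe695/PSEN1dE9 mice that carried no transgene themselves, kept on a C57BL/6J background, so none models amyloid disease. The Control group held 4 untreated mice of 19 weeks. The Hydroxyurea group held 4 mice given hydroxyurea at 45 mg/kg/day in the drinking water for 10 weeks, Hydroxyurea 1 and 2 up to an age of 24 weeks and Hydroxyurea 3 and 4 up to 19 weeks. Mice shared cages, and the labels do not say which ones did. The Control arrays lay on row 1 of the slide and the Hydroxyurea arrays on row 2, so slide row and treatment cannot be told apart.

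Hydroxyurea blocks ribonucleotide reductase and so starves replicating DNA of deoxynucleotides. In dividing cells, stalled forks expose single-stranded DNA that is coated by replication protein A, which recruits the kinase ATR, and ATR activates CHK1 to hold the cell cycle. The kinase ATM, with CHK2 below it, answers double-strand breaks in the same way. Both relays work mainly by phosphorylation of existing proteins, which an RNA array does not measure. Neurons of the adult hippocampus do not divide, apart from a small pool of progenitors in the dentate gyrus, and their DNA lesions are largely oxidised or lost bases and single-strand breaks, the substrates of base excision repair.

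Control arrays had a 75th percentile of signal between 1677 and 2417, and Hydroxyurea arrays between 1052 (Hydroxyurea 2) and 2162. Replicate spots had a median coefficient of variation of 12.9% for Control 1, while the other arrays had 3.72% to 4.44%. All 10 markers of hippocampal neurons, Prox1 and Wfs1 among them, were well above background on all 8 arrays. Of 12 markers of cycling cells, 7 were above background on every array, while Aurkb was above it on none. Markers of neighbouring tissue were present as well: the 10 choroid plexus markers had a mean deviation of -2.23 to 0.86 (log2) in Control and -1.16 to 2.76 in Hydroxyurea mice, and the 8 striatal markers had -0.22 to 0.04 and 0.07 to 0.16. Of these markers 10 of 10 and 6 of 8 had higher values in Hydroxyurea mice. Higher values were also found for 7 of 7 tested markers of thalamus and habenula and 8 of 8 of blood and neutrophils, while 8 of 10 hippocampal neuron markers had lower ones. None passed the adjusted threshold. The neutrophil genes Ltf and Camp did not overlap between the groups, with log2 fold changes of 0.69 ± 0.12 and 0.36 ± 0.08 (SE; limma adjusted p = 0.453 for both). Neither did Mcm2 of the cycling markers (0.33 ± 0.14) and Neurod1 of the markers of newborn neurons and progenitors (-0.28 ± 0.08). Of all genes tested, 7.49% did not overlap. The part of these markers in the values given here was not tested. In bulk tissue, fewer cells of a type and less RNA per cell cannot be told apart.

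Many genes of the replication checkpoint are known targets of E2F transcription factors, so RefSeq promoter windows (GRCm38.p6, 250 bases before to 50 after the start) were searched for the E2F-type letters TTGGCGC or TTCCCGC on either strand. A window was found for 29 of the 37 genes, and 13 of these held a motif (44.8%), against 12.4% of 13176 genes tested on the arrays and 7.79% of all 27025 genes in the table. TTCCCGC stood in 9 of them and TTGGCGC in 4. Of the 113 other genes of these pathways on the arrays, 88 had a window and 27.3% of these held a motif. The motif lay before the start in Apex1, Brca2, Chek2, Mdc1, Rad52, Rpa2, Topbp1 and Xrcc6, and at or after it in Atm, Brca1, Chek1, Lig1 and Msh6. A match is only a match of letters.

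The 250 bases before the start are shown for 4 genes, a checkpoint kinase, a subunit of replication protein A and 2 genes of break repair, to show where the letters lie. Capitals mark TTCCCGC or its reverse complement. All 4 windows are on the plus strand: Chek2 at chr5:110839733-110839982, Rpa2 at chr4:132768110-132768359, Brca2 at chr5:150522371-150522620 and Mdc1 at chr17:35841248-35841497. The first base of the motif lay 152 bases before the start in Chek2, 37 in Rpa2 and 168 in Brca2. Mdc1 held it at 129 and again at 15 bases before the start.
Chek2: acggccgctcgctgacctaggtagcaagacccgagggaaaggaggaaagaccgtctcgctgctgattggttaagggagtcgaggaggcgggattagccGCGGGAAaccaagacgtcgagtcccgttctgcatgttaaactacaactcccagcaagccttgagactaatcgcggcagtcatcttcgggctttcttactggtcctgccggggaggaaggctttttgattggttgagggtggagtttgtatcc
Rpa2: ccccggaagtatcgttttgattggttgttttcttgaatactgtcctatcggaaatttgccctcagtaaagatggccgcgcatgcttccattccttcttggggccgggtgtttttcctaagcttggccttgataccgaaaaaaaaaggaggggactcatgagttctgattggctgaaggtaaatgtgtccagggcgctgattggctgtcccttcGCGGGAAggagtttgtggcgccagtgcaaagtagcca
Brca2: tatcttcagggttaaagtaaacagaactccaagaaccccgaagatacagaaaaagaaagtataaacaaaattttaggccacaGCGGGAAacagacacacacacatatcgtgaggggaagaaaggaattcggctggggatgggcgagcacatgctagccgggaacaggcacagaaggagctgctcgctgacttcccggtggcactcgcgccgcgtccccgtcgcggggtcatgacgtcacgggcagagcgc
Mdc1: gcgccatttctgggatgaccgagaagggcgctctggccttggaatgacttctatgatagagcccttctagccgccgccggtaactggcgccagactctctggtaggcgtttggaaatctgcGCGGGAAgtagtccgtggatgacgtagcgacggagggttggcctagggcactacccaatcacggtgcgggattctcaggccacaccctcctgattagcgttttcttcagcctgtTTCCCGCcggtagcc

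The study's comparison asks whether 10 weeks of hydroxyurea changed hippocampal expression. No checkpoint or repair gene passed the threshold. Of the 36 genes tested, 0 had an adjusted p under 0.05 (limma, Benjamini-Hochberg over 16629 genes, 0% of which passed), and their adjusted p ran from 0.494 to 0.997. The log2 fold changes, Hydroxyurea over Control, ran from -0.20 (Lig3) to 0.37 (Clspn) with a median of -0.04, against a median of -0.0038 over all genes tested. Values below 0 were found for 22 of 36 genes (61.1%), against 51.3% of all genes. With arrays scaled to their median instead it was 29, and that scaling put 70.3% of all genes below 0.

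At an unadjusted p under 0.05, 1 gene (Clspn) was higher and 1 (Atm) was lower, where 3.52% of all genes were higher and 6.35% lower, 9.87% in all. Over all genes 64.3% of the values under that unadjusted limit were lower, and 90.2% with median centring. Neither gene kept an unadjusted p under 0.05 when Control 1, Control 2, Control 4, Hydroxyurea 3 or Hydroxyurea 4 was left out. The groups of mice did not overlap for 1 gene, Msh6 (lower), of 36, where 2.38% of all genes were higher without overlap and 5.11% lower, 7.49% in all.

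By the probe tested, the brightest of each gene, the fits were narrow enough to bound most of these genes. The bounds do not cover second probes, of which that of Trp53bp1 gave 0.38 ± 0.22 (SE) and that of Timeless -0.25 ± 0.14. The 95% interval lay within a 1.5-fold change in either direction for 32 of 36 genes (88.9%), against 77.7% of all genes tested. The exceptions were Chek2, Clspn, Fancd2 and Lig3, whose intervals reached 1.56-fold, 1.66-fold, 1.55-fold and 1.52-fold. Chek1 is among the 32, but it was well above background on only 1 Hydroxyurea array, so its interval does not bound the change. The same limit holds for Chek2 and Clspn, well above background on only 1 and 2 Hydroxyurea arrays. The SD between mice within a group had a median of 0.11 (log2) over the 36 genes and of 0.15 over all genes.

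**Figure D1:**
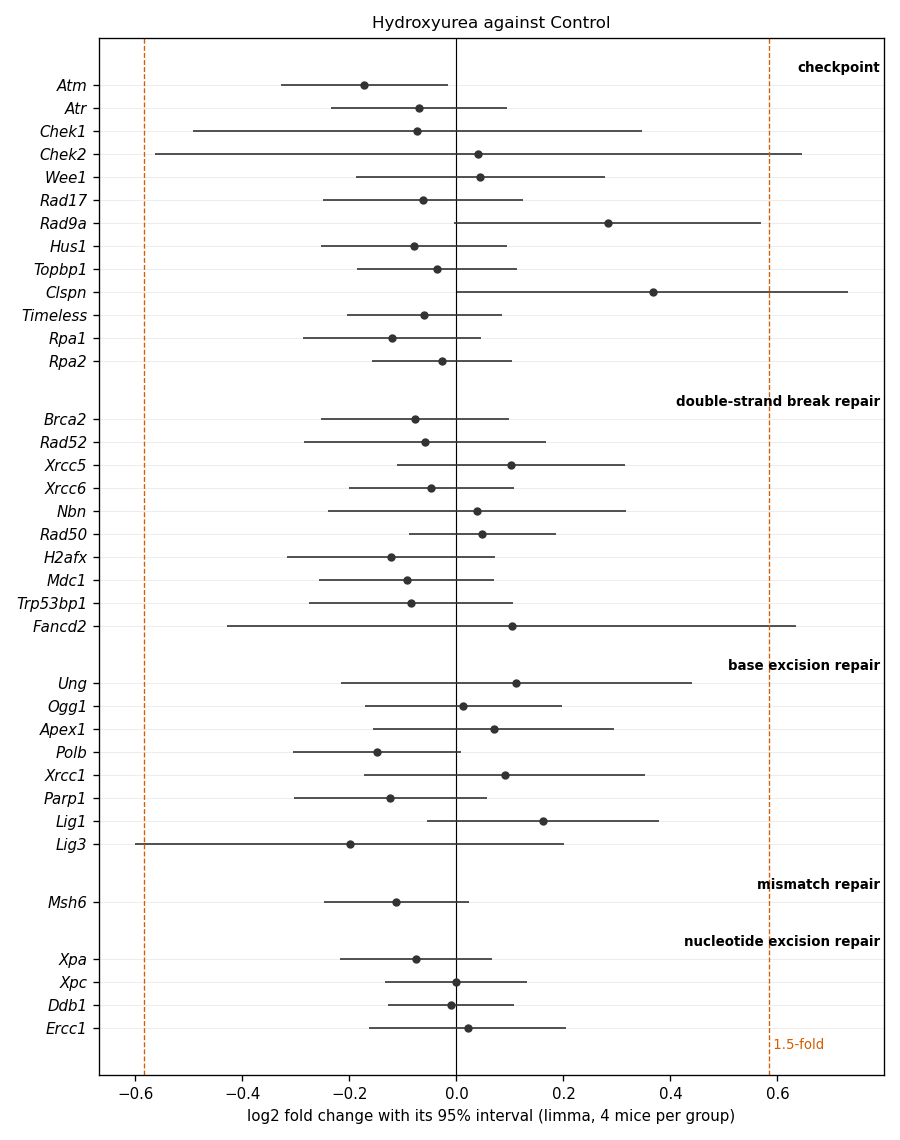
Log2 fold change of each of the 36 tested genes, Hydroxyurea against Control (horizontal axis), with its 95% interval from limma, grouped by role; dashed lines mark a 1.5-fold change in either direction. The intervals of 32 genes lie inside the dashed lines, and only those of Atm and Clspn leave out 0.

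**Figure D2:**
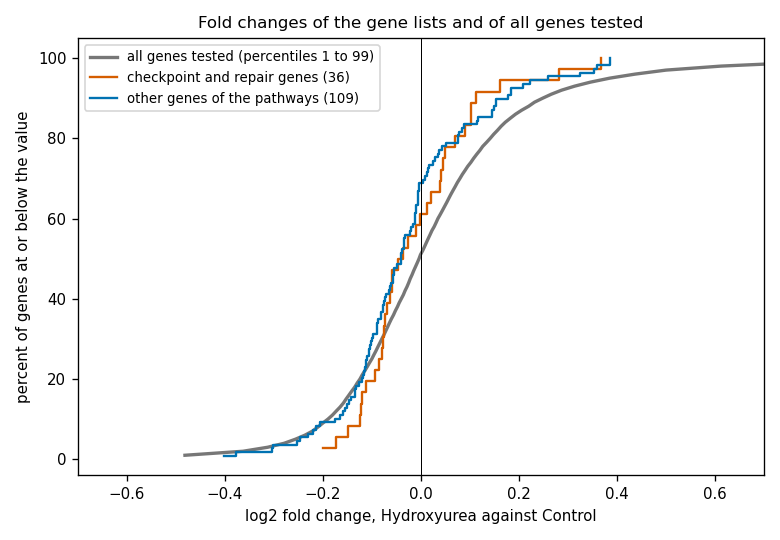
Percent of genes (vertical axis) at or below each log2 fold change (horizontal axis) for the 36 checkpoint and repair genes, the 109 other pathway genes tested and all 16629 genes tested. Both lists cross 0 at a higher percent (61.1% and 68.8%) than all genes (51.3%), and their values spread less widely.

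Checkpoint kinases came first, since in dividing cells the forks that hydroxyurea stalls activate ATR and, through it, CHK1. Levels are given as log2 of the signal over the array's 75th percentile, so a negative level lies below that percentile. Atm, the kinase that answers double-strand breaks, was at -0.31, -0.25, -0.46 and -0.38 in Control 1 to 4 and at -0.45, -0.50, -0.53 and -0.61 in Hydroxyurea 1 to 4. All treated mice lay below the Control mean, and the groups overlapped only in that Hydroxyurea 1 lay just above Control 3. The log2 fold change was -0.17 ± 0.07 (SE, n = 4 per group; limma adjusted p = 0.494; exact permutation p = 0.0571). A second, dimmer probe of Atm gave -0.01 ± 0.11 (SE).

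Atr, the kinase of stalled forks, was at 0.67, 0.73, 0.89 and 0.84 in the Control mice and at 0.77, 0.61, 0.71 and 0.75 in the Hydroxyurea mice. The groups overlapped, and the log2 fold change was -0.07 ± 0.07 (SE, n = 4 per group; exact permutation p = 0.314), with an interval from -0.23 to 0.09.

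Chek1 and Chek2 encode the kinases that ATR and ATM switch on, and both probes were dim. Chek1 was at -5.17, -5.20, -5.21 and -5.41 in Control and at -5.39, -4.77, -5.44 and -5.68 in Hydroxyurea mice. The Control mice lay close together and the treated mice spread on both sides of them, with Hydroxyurea 2 the highest. On the log2 scale the difference was -0.07 ± 0.18 (SE, n = 4 per group; exact permutation p = 0.686) and turned to 0.08 with normexp background correction. Chek2 was at -5.75, -5.69, -5.69 and -4.99 in Control and at -5.31, -5.41, -5.07 and -6.16 in Hydroxyurea mice. The groups overlapped widely, and the log2 difference of 0.04 ± 0.26 (SE, n = 4 per group; exact permutation p = 0.971) turned to -0.09 with quantile scaling and -0.04 with median centring. Arrays on which Chek1 was well above background numbered 4 in Control and 1 in Hydroxyurea mice, and for Chek2 they numbered 3 and 1.

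The background limit itself differed between the groups. Among Control arrays, the dimmest probe still well above background had a level between -6.59 and -5.77, and among Hydroxyurea arrays between -6.18 and -5.04. The part of this difference in the values of dim genes was not tested.

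Clspn encodes claspin, the adaptor through which ATR reaches CHK1, and its probe was dim too, above background on 4 Control arrays and 2 Hydroxyurea arrays. It was at -5.57, -5.79, -5.33 and -5.63 in Control and at -5.34, -5.54, -5.11 and -4.86 in Hydroxyurea mice. The 19-week treated mice, Hydroxyurea 3 and 4, were the highest of all 8, and the 24-week treated mice lay within the Control range. The log2 fold change was 0.37 ± 0.16 (SE, n = 4 per group; limma adjusted p = 0.506; exact permutation p = 0.0857). It was 0.59 between 19-week mice alone, in a fit with age as a covariate (limma adjusted p = 0.707).

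Rad9a and Hus1 encode parts of the 9-1-1 clamp that is loaded at damaged DNA, and Rad17 encodes its loader. Rad9a was at -1.03, -1.20, -1.40 and -1.20 in Control and at -1.13, -0.62, -0.94 and -1.01 in Hydroxyurea mice. Only Hydroxyurea 1 lay below the highest Control mouse, and Hydroxyurea 2, the dim array, was the highest of all. The log2 fold change of Rad9a was 0.28 ± 0.12 (SE, n = 4 per group; limma adjusted p = 0.510; exact permutation p = 0.0571), and 0.18 without Hydroxyurea 2. Its partners had values of the other sign, with -0.08 ± 0.08 (SE) for Hus1 and -0.06 ± 0.08 for Rad17. The value of Rad17 was 0.06 with normexp.

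The remaining checkpoint genes had values between -0.12 and 0.04 by the probe tested. Rpa1 and Rpa2, subunits of the protein that coats single-stranded DNA, had log2 fold changes of -0.12 ± 0.07 (SE) and -0.03 ± 0.06. For Rpa1 the spot of Control 1 was marked as an outlier, so that fit used 3 Control mice. Topbp1, which activates ATR, had -0.04 ± 0.06, and Timeless, which protects stalled forks, had -0.06 ± 0.06. A second, dimmer probe of Timeless gave -0.25 ± 0.14. Wee1, the kinase that restrains CDK1, had 0.04 ± 0.10, which was -0.04 with median centring. In all, 4 of the 13 checkpoint genes had values above 0 and 9 below, with a median of -0.06.

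**Figure D3:**
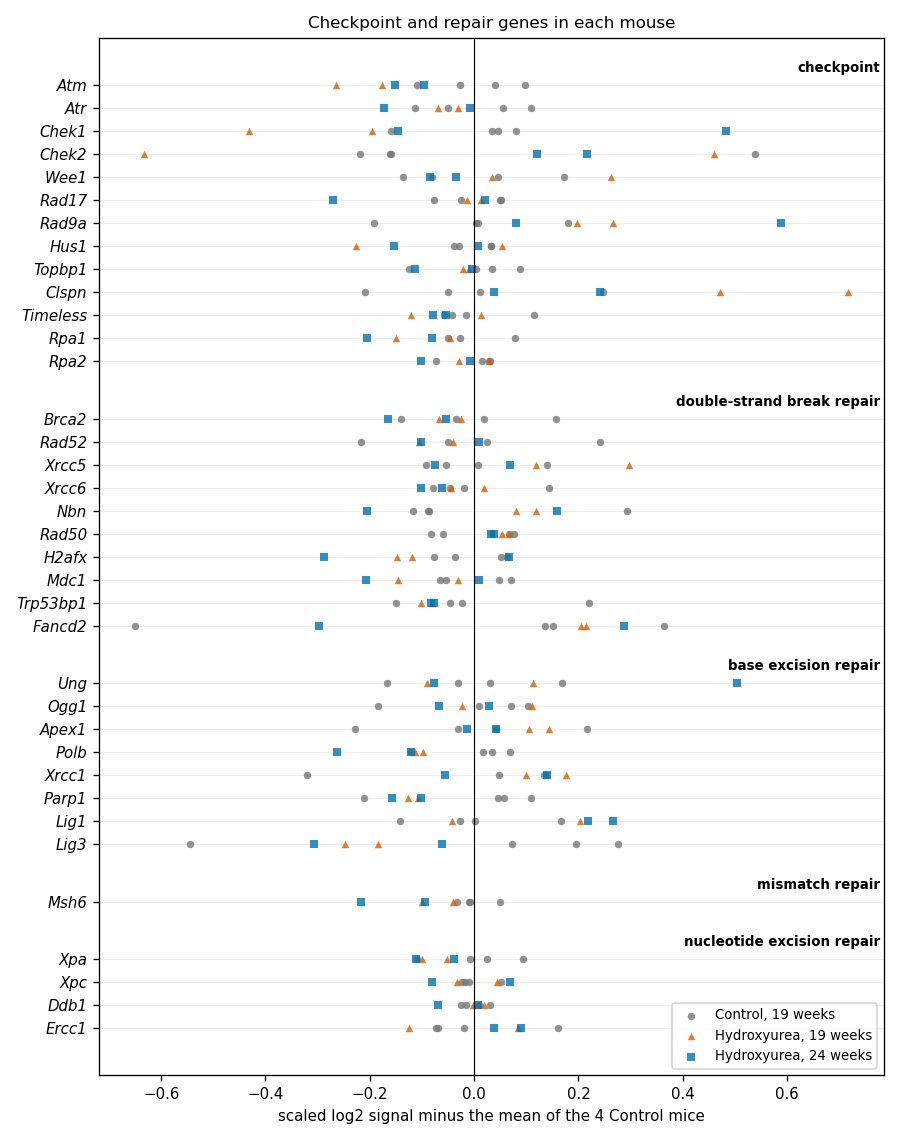
Scaled log2 signal of each of the 36 tested genes in each mouse, minus the mean of the Control mice (horizontal axis; 4 Control mice, 3 for Rpa1), by role; circles are Control mice, triangles 19-week and squares 24-week Hydroxyurea mice. The groups overlap for every gene except Msh6, and the SD within a group is largest for Chek2, Fancd2, Chek1 and Lig3.

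Genes of double-strand break repair fall into those that mark a break, those that join its ends and those that copy the sister strand. H2afx encodes the histone variant that is phosphorylated around a break, and was at 2.89, 2.75, 2.88 and 2.79 in Control and at 2.90, 2.54, 2.71 and 2.68 in Hydroxyurea mice. Hydroxyurea 2 to 4 lay below all Control mice and Hydroxyurea 1 above them, for a log2 difference of -0.12 ± 0.08 (SE; n = 4 mice a group; limma adjusted p = 0.638; exact permutation p = 0.200). The array measures the transcript and not the phosphorylated protein.

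Mdc1, the scaffold that reads this histone mark, was at -0.63, -0.64, -0.51 and -0.53 in Control and at -0.57, -0.78, -0.72 and -0.61 in Hydroxyurea mice. The groups overlapped, with Hydroxyurea 2 and 3 below every Control mouse. In the fit the log2 fold change was -0.09 ± 0.07 (SE, n = 4 per group; exact permutation p = 0.171). Trp53bp1 encodes 53BP1, which protects broken ends, and was at 1.99, 1.73, 1.62 and 1.75 in Control and at 1.70, 1.69, 1.67 and 1.69 in Hydroxyurea mice. The treated mice were nearly identical and lay inside the Control range. Its log2 fold change was -0.09 ± 0.08 (SE, n = 4 per group; exact permutation p = 0.400), while a second probe gave 0.38 ± 0.22 (SE), so its direction depends on the probe.

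Of the Ku genes, whose proteins hold broken ends for joining, Xrcc5 (Ku80) was at 0.83, 0.76, 0.96 and 0.73 in Control and at 0.89, 0.74, 0.94 and 1.11 in Hydroxyurea mice. The groups overlapped, with Hydroxyurea 4 above every other mouse. The log2 fold change of Xrcc5 was 0.10 ± 0.09 (SE, n = 4 per group; exact permutation p = 0.343), and that of Xrcc6 (Ku70) was -0.05 ± 0.07.

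Brca1, which directs repair by recombination, was below the background limit on all 8 arrays (not well above background), so it was not tested and no fold is given. Its measured level lay between -8.40 and -7.89 in the Control group and between -8.28 and -6.88 in the treated group. Brca2, which loads the recombinase, had a log2 fold change of -0.08 ± 0.08 (SE), and Rad52 had -0.06 ± 0.10. Nbn and Rad50 encode partners in the complex that senses breaks, and had 0.04 ± 0.12 and 0.05 ± 0.06. With median centring these were -0.04 and -0.03. Fancd2, of the Fanconi anaemia pathway for crosslinked DNA, had 0.10 ± 0.23 with an interval from -0.43 to 0.64. Of the 10 tested genes of this role, 4 had values above 0 and 6 below, with a median of -0.05.

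Base excision repair removes damaged bases in steps: a glycosylase cuts out the base, APEX1 nicks the strand, and a polymerase and a ligase fill and seal the gap. The glycosylase genes Ung and Ogg1 had log2 fold changes of 0.11 ± 0.14 (SE) and 0.01 ± 0.08, and Apex1 had 0.07 ± 0.10. Ogg1 turned to -0.02 with normexp and to -0.07 with median centring, and Apex1 to -0.01 with median centring.

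Polb, the gap-filling polymerase, was at 1.46, 1.65, 1.62 and 1.60 in Control and at 1.46, 1.32, 1.49 and 1.47 in Hydroxyurea mice. Of the Control mice only Control 1, the array with the most variable spots, lay among the treated ones. The log2 fold change was -0.15 ± 0.07 (SE, n = 4 per group; limma adjusted p = 0.519; exact permutation p = 0.114). It was -0.19 without Control 1 (limma adjusted p = 0.263).

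Parp1 encodes the sensor of single-strand breaks, and was at 1.07, 1.06, 0.80 and 1.12 in Control and at 0.85, 0.91, 0.88 and 0.90 in Hydroxyurea mice. Control 3 lay below all treated mice and the other Control mice above them. On the log2 scale the difference was -0.12 ± 0.08 (SE, n = 4 per group; limma adjusted p = 0.612; exact permutation p = 0.143). Xrcc1, the scaffold that PARP1 recruits, had 0.09 ± 0.11.

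The ligase genes had values of opposite sign. Lig1, which also seals replicated DNA, was at 0.61, 0.44, 0.41 and 0.30 in Control and at 0.66, 0.71, 0.64 and 0.40 in Hydroxyurea mice. Hydroxyurea 1 to 3 lay above every Control mouse and Hydroxyurea 4 below all but Control 4. The log2 fold change was 0.16 ± 0.09 (SE, n = 4 per group; limma adjusted p = 0.582; exact permutation p = 0.143). Lig3, the partner of XRCC1, had -0.20 ± 0.17, with an interval from -0.60 to 0.20. Control 1 was at -1.25 and the other Control mice between -0.64 and -0.43, and without Control 1 the value was -0.38 (limma adjusted p = 0.232). It was -0.11 without Control 3. A second probe of Lig3 gave -0.04 ± 0.09. Of the 8 genes of base excision repair, 5 had values above 0 and 3 below, with a median of 0.04.

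Msh6 encodes a mismatch repair protein that recognises single mismatches. It was at 1.89, 1.92, 1.98 and 1.92 in Control and at 1.83, 1.71, 1.89 and 1.83 in Hydroxyurea mice. All treated mice lay below all Control mice, though Hydroxyurea 3 and Control 1 were only 0.0080 apart. In the fit the log2 fold change was -0.11 ± 0.06 (SE, n = 4 per group; limma adjusted p = 0.555), with an interval from -0.25 to 0.02. The exact permutation p of 0.0286 is the smallest that 70 assignments of 4 and 4 mice can give.

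Nucleotide excision repair removes bulky lesions. Its 4 genes had a median SD between mice of 0.06 (log2), against 0.10 for checkpoint genes and 0.14 for base excision repair. Xpa, which verifies the lesion, was at 2.63, 2.53, 2.43 and 2.57 in Control and at 2.50, 2.43, 2.44 and 2.49 in Hydroxyurea mice. Control 3 lay among the treated mice and the other Control mice above them. On the log2 scale the difference was -0.08 ± 0.06 (SE, n = 4 per group; exact permutation p = 0.143), and a second probe gave 0.02 ± 0.10. Ercc1, part of the nuclease that cuts beside the lesion, was at 0.03, -0.15, -0.21 and -0.20 in Control and at -0.04, -0.10, -0.26 and -0.05 in Hydroxyurea mice. The groups overlapped throughout, with a log2 difference of 0.02 ± 0.08 (SE, n = 4 per group; exact permutation p = 0.771) that was -0.06 with median centring.

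Xpc and Ddb1, which find lesions, had log2 fold changes of -0.00087 ± 0.06 (SE) and -0.01 ± 0.05. Their intervals, from -0.13 to 0.13 and from -0.13 to 0.11, were among the narrowest of the 36 genes.

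A mean deviation was computed for each role in each mouse, the average over its genes of the level minus that gene's mean over the 8 mice. For checkpoint genes it ran from -0.04 to 0.04 in both groups. For double-strand break repair it was -0.01 to 0.05 in Control mice, -0.12 in Hydroxyurea 2 and 0.01 to 0.04 in the other Hydroxyurea mice. For base excision repair the Control mice ran from -0.09 to 0.07 and the treated mice from -0.03 to 0.02. The groups overlapped in each of these roles, and in nucleotide excision repair (Control -0.02 to 0.06, Hydroxyurea -0.06 to 0.03).

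Single arrays took part unevenly. The dim array Hydroxyurea 2 held the lowest of the 8 values for 10 of 36 genes and the highest for 4. Control 3 held the highest for 10 of 36 and the lowest for 7. Without Hydroxyurea 2 the median log2 fold change of the 36 genes was -0.02 in place of -0.04. The cycling markers that were tested, 8 of 12, had a mean deviation between -0.19 and 0.17 in Control and between -0.08 and 0.09 in treated mice, with 5 values above 0 and 3 below.

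**Figure D4:**
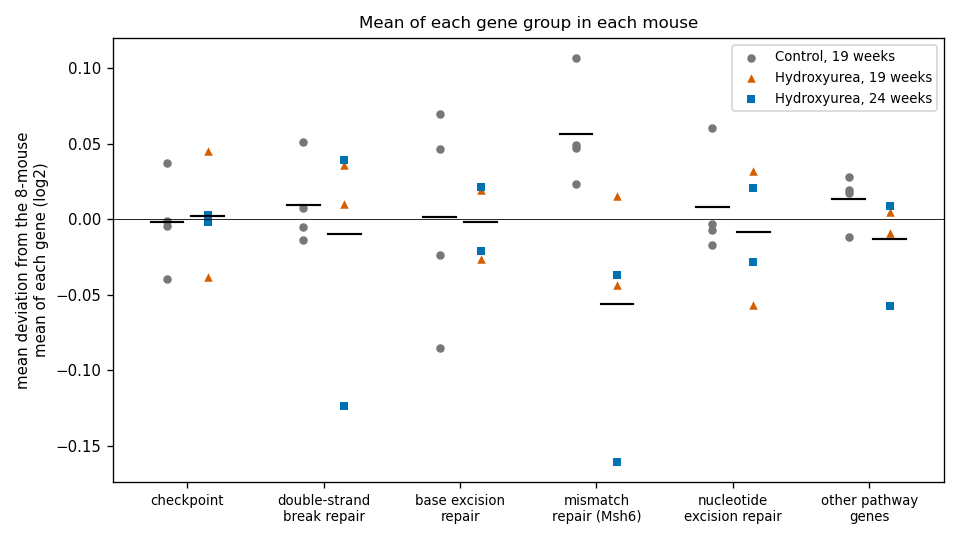
Mean deviation of each role's genes from their 8-mouse mean (vertical axis, log2) in each mouse, with the other pathway genes at the right; short lines are group means. The Control and Hydroxyurea mice overlap in every role but mismatch repair, which is Msh6 alone, and Hydroxyurea 2 is the lowest square for double-strand break repair at -0.12.

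Fold changes of genes with and without an E2F-type motif in the promoter window overlapped in range, and their difference was not tested. Values below 0 made up 51.3% of all genes tested on the arrays. Of 12 tested genes with a motif, 9 had values below 0, with a median of -0.05 and a range from -0.17 to 0.16. Of 16 without one, 10 had values below 0, with a median of -0.06 and a range from -0.20 to 0.37.

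Treated mice of 24 and 19 weeks were compared because the labels give both ages. Since the Control mice were all 19 weeks old, age could not be compared without treatment, and it cannot be told apart from the age at the start of treatment, which the labels give as 9 to 14 weeks. None of the 36 genes passed the threshold (limma, 0 of 36; 0% of all genes), and the adjusted p was 1.0 for each. At an unadjusted p under 0.05 there was 1 gene, Clspn, against 2.7% of all genes. Clspn had a log2 difference of -0.46 ± 0.17 (SE, n = 2 per age), with means of -5.44 at 24 weeks and -4.99 at 19 weeks. It was not well above background in either 24-week mouse, so the size of this difference is not measured. Xrcc5 had -0.21 ± 0.12 in the same direction. Chek1 had 0.48 ± 0.21 and Lig1 0.16 ± 0.13, with the higher values at 24 weeks. The value of Chek1 rests on the dim array Hydroxyurea 2, at -4.77, since Hydroxyurea 1 was at -5.39 beside -5.44 and -5.68 at 19 weeks. Chek1 too was not well above background in either 24-week mouse. In all, 23 of 36 genes had lower values at 24 weeks (55.5% of all genes did).

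The wider pathways were described through 114 further genes in a fixed list, of which 113 had a probe and 109 were tested. Of these, 0 passed the threshold (limma adjusted p from 0.464 to 0.993). At an unadjusted p under 0.05, 3 were higher and 5 lower of 109, where 3.52% of all genes were higher and 6.35% lower. Without overlap between the groups, 1 was higher and 4 lower of 109, where 2.38% of all genes were higher and 5.11% lower. Values below 0 were found for 75 of 109 (68.8%), with a median of -0.04, and the interval lay within a 1.5-fold change for 93.

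Among further checkpoint genes, Tlk1, a chromatin kinase of S phase, lay between 2.27 and 2.50 in Control and, without overlap, between 2.08 and 2.14 in treated mice. Its log2 fold change was -0.23 ± 0.07 (SE, n = 4 per group; limma adjusted p = 0.464). Pkmyt1, a kinase that like WEE1 restrains CDK1, had 0.26 ± 0.10. In break repair, Palb2, the partner of BRCA2, had -0.38 ± 0.15, and Polq, the polymerase of end joining by short homologies, had -0.21 ± 0.08. Palb2 was detected in all 4 Control mice and in 3 treated ones, and its value was -0.24 without Control 1 (limma adjusted p = 0.335). Across the other settings of the processing, Palb2 ran from -0.46 to -0.10 and Polq from -0.29 to -0.08. Tlk1 ran from -0.31 to -0.16 and Pkmyt1 from 0.15 to 0.35.

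In the repair of strand breaks and bases, Aptx and Tdp2, which clean blocked DNA ends, had -0.22 ± 0.08 and -0.30 ± 0.13 (SE, n = 4 per group). Of the 18 tested genes that this list places under base excision repair, 14 had values below 0 (51.3% of all genes did). Aptx and Tdp2 are among the 18, and Tdp2 had the lowest value of them. The mean deviation of the 18 lay between -0.0066 and 0.14 in Control mice, with Control 1 the highest. In treated mice it lay, without overlap, between -0.10 and -0.01. The nearest mice were Control 3 at -0.0066 and Hydroxyurea 1 at -0.013. In every other role of this list the groups overlapped, as they did for the base excision repair genes described above.

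Gtf2h1, of the helicase complex TFIIH, and Ercc6, of transcription-coupled repair, had log2 fold changes of -0.14 ± 0.06 and -0.12 ± 0.06 (SE, n = 4 per group). The translesion polymerase genes Poli and Rev3l each had -0.12 ± 0.06. Of the 20 further genes of nucleotide excision repair 13 had values below 0, and of the 10 of direct reversal and translesion synthesis 7 did.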

How the data were processed

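Hippocampal RNA (200 ng per mouse, Cy3) was hybridised to Agilent 1-colour arrays, 1 per mouse. Per the file headers, the authors' scanner files came from Agilent Feature Extraction 12.0.3.1 with a design grid of mm9, and their intensity values were background-subtracted within each array. The authors also deposited a value table whose scale and centring they do not state. Its values matched a z score of the log signal of each array to 0.005, with column medians from -0.21 to -0.17, and this deposited score served only as an alternative.

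The processed intensity was divided by each array's 75th percentile and taken as log2. Control spots and outlier spots were left out, and spots of 1 probe were averaged. Of 55681 probes 28331 could be named through RefSeq (GRCm38.p6), for 21368 genes. A gene, represented by its brightest probe, was tested where it was well above background on at least 4 arrays, which left 16629. Their number, 8 arrays, limits the precision. Groups were compared with limma 3.58.1 (R 4.3.3), with p-values adjusted by Benjamini and Hochberg's method across the 16629 genes and called under 0.05, and single genes also with a two-sided exact permutation test. The age comparison fitted 3 group means. Values of second probes come from a fit over all probes without the filter, so their SEs are not those of the gene fit. P-values set the difference between groups against the spread between these mice, and do not account for shared cages or slide row. The script was tested on simulated data.

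All members are named. Those with the smallest unadjusted p in each role (3, 3, 2, 1 and 2) and Atm, Atr, Chek1, Chek2, Brca1, H2afx, Trp53bp1 and Parp1 are given per mouse. Of the other pathway genes, the 2 with the smallest p in each role are named, except in mismatch repair, where they are not reported here, and of the age comparison the 2 per direction. Members, lists and rules were chosen with earlier results of these data known.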

Additional observations from a re-analysis of the deposited data

Results flagged for a closer look

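Of 98 groups of up to 4 mice examined, 11 held 1 mouse far from the other 3 by Dixon's criterion, and chance gives about 1 in 20. The array Hydroxyurea 2, the dimmest, was the lowest of its group for Rad17 (1.19, others 1.44 to 1.48), Topbp1 (-0.17, others -0.07 to -0.06), Fancd2 (-4.28, others -3.78 to -3.70) and Polb (1.32, others 1.46 to 1.49). Control 1, the array with the most variable spots, was the highest of its group for Nbn (-1.14, others -1.55 to -1.52), Tlk1 (2.50, others 2.27 to 2.31), Palb2 (-4.15, others -4.74 to -4.68) and Tdp2 (1.20, others 0.78 to 0.84), and the lowest for Rev3l (2.48, others 2.62 to 2.63). Chek2 was highest in Control 4 (-4.99, others -5.75 to -5.69), and Rpa2 was lowest in Control 2 (-1.48, others -1.40 to -1.38). The part of signal strength and spot noise in these values was not tested.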

How the results depend on the processing

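Of 48 named genes with a fold change, 30 kept their direction in every setting on the log2 scale, and 18 turned in at least 1. With the deposited value table, which is not on that scale, 9 of 36 members turned. Members past the adjusted threshold numbered 0 in all of these. The cause of these turns was not tested. Age as a covariate gave Ercc1 -0.021, Chek2 -0.086, Rpa2 0.00033, Xpc 0.0048, Ddb1 0.0087 and Rad17 3.0e-05. Array weights gave Rad50 -0.0026, Xrcc1 -0.012, Ogg1 -0.035, Rad17 0.0015 and Xpc 0.0095, and the mean of probes gave Trp53bp1 0.15. Median centring gave Apex1 -0.012, Rad50 -0.033, Wee1 -0.037, Chek2 -0.040, Nbn -0.043, Ercc1 -0.060 and Ogg1 -0.069, and it moved the median of all genes to -0.09. Normexp gave Ogg1 -0.023, Rad17 0.056 and Chek1 0.082, and quantile scaling gave Chek2 -0.091. Without Control 1 and Hydroxyurea 2 together, Ung was -0.0084, Ogg1 -0.022, Xrcc1 -0.034, Chek2 -0.058, Rpa2 0.0071, Xpc 0.018, Rad17 0.024 and Rad52 0.036.

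Leaving out 1 mouse at a time gave Chek1 -0.26 to 0.047, Chek2 -0.099 to 0.27, Wee1 -0.028 to 0.10, Rad17 -0.090 to 0.0072, Rad52 -0.13 to 0.022, Xrcc6 -0.073 to 0.00016, Nbn -0.0018 to 0.14 and Fancd2 -0.11 to 0.24. It gave Ung -0.018 to 0.18, Ogg1 -0.049 to 0.047, Apex1 -0.0069 to 0.14, Xrcc1 -0.017 to 0.14, Xpc -0.024 to 0.026, Ddb1 -0.021 to 0.0085 and Ercc1 -0.0031 to 0.075. Genes at an unadjusted p under 0.05 numbered 1642, and 1111 to 2522 with 1 mouse left out, 2483 with no filter and 3127 with array weights. Members higher at that limit numbered 1, and 0 to 2 with 1 mouse left out, 0 with quantile scaling or median centring, and 3 with array weights or without Control 1 and Hydroxyurea 2. Members lower numbered 1, and 0 to 2 with 1 mouse left out, 3 with median centring, 2 with normexp, 0 with the mean of probes, 5 with array weights and 2 without both arrays.

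Between ages, leaving out 1 treated mouse gave 0 to 7 genes past the adjusted threshold (7 without Hydroxyurea 4, 1 without Hydroxyurea 3) and 406 to 990 at the unadjusted limit, with 0 to 2 members higher and 0 to 2 lower. Members lower between ages numbered 0 with quantile scaling, and members higher numbered 1 with no filter. The promoter motif TTGGCGC alone was held by 13.8% of windows.

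With the replicate number as a block, 1319 genes and 1 higher and 0 lower members had an unadjusted p under 0.05, and 0 genes passed the adjusted threshold. Same-numbered mice had deviations correlated at 0.053, 0.2, -0.209 and -0.06. Hydroxyurea 1 and 2 were most like the Control mouse of the same number, and Hydroxyurea 3 and 4 were not. Whether the numbers pair the mice cannot be told from these values. Chek1, Chek2 and Clspn, above background on only some arrays, and Brca1, on none, are limited by signal over background.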
